A study of Mus musculus with 6 samples.

Results

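The genes described here are the hormones of the islet's alpha, PP and epsilon cells and a set of alpha-cell genes, read in 3 sorted mouse islet populations. They were chosen by symbol, and the 10 are Gcg, Ppy, Pyy, Ghrl, Npy, Irx1, Irx2, Pou3f4, Gc and Ttr, of 46932 gene symbols in the expression table. In the islet, alpha cells secrete glucagon, PP cells secrete pancreatic polypeptide, and epsilon cells, which are rare in adults, secrete ghrelin. Beta cells secrete insulin and delta cells secrete somatostatin, which restrains both alpha and beta cells. Peptide YY and neuropeptide Y belong to the same peptide family as pancreatic polypeptide and act on the same receptor family. Irx1, Irx2 and Pou3f4 are homeodomain transcription factors of alpha cells, and Gc and Ttr encode plasma carrier proteins that alpha cells also make.

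All libraries came from adult mice carrying 3 alleles: mIns1-H2b-mCherry, in which an insulin promoter drives a nuclear red reporter, Sst-cre, in which the somatostatin gene drives Cre, and a floxed YFP allele that Cre switches on for good. The beta sort was mCherry positive, the delta sort was YFP positive, and the sort positive for both, which the labels name transdifferentiated, holds cells with a delta-lineage label and an active insulin promoter. The YFP label records past or present Cre activity in a cell and not its current state. Islets were cultured overnight in 5.5 mM glucose with 10% serum and dissociated with 0.25% trypsin. Each sort has 2 libraries, replicate 1 from a pool of male mice and replicate 2 from a pool of female mice, with 10 to 12 animals pooled, so the spread within a sort includes any difference between the sexes. According to the design text, 1 set of islets gave all 3 populations. A sentence there calls the double-positive cells derived from alpha cells, but delta cells are named by the series title, by the labels of the samples and by the gene that drives Cre, and that reading is used here.

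Values are RPKM, which scales reads by exon length and by library depth, so levels of different genes can be compared per length. Steps in the low values put the depth at 20500000 to 21600000 counted reads in the beta libraries, 10900000 to 12500000 in the transdifferentiated libraries and 15700000 to 17000000 in the delta libraries. The summed RPKM of 5 delta-cell markers was 79.7 to 96.6 in the beta, 13507 to 13590 in the transdifferentiated and 51785 to 60684 in the delta libraries. That of 9 beta-cell markers ran the other way, at 259413 to 356157, 115938 to 123935 and 22131 to 22361. In delta libraries the beta-cell sum was mostly Iapp, at 20630 and 20530 RPKM, against 45873 and 37407 in beta libraries. The insulin gene Ins2 was at 1125 and 1369 RPKM in delta and 243303 and 169339 in beta libraries. The male beta and male transdifferentiated libraries stood apart in acinar genes: 6 acinar markers summed to 6915 and 1842 RPKM there, against 64.3 to 501 in the other 4 libraries. The sum of 6 immune markers was 79.0 to 94.9 RPKM in beta, 44.2 to 45.4 in transdifferentiated and 73.4 to 87.9 in delta libraries. Among them C1qa was highest in delta, at 59.3 and 76.9 RPKM against 34.9 and 40.5 in beta, while C1qb, at 9.76 and 12.3 RPKM, and Lyz2, at 5.82 and 7.99, were highest in beta, and Lyz2 and Adgre1 were at 0 in both delta libraries. In bulk sorts such as these, fewer cells of a type and less RNA per cell cannot be told apart.

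The promoters of the 3 abundant hormone genes are shown because all 3 were lowest in beta and highest in delta libraries, though not by the same factors. Each is the 250 bases before the gene's start, from RefSeq on GRCm38.p6, 5′ to 3′ on the gene's own strand, which is the minus strand for all 3. Capitals mark 3 short motifs, searched on both strands: TATAAA, the TATA box, TGCTGA, the core of an element bound by basic leucine zipper factors, and CAGATG, an E-box. The capitals TTTATA are TATAAA read on the opposite strand.
Gcg, chr2:62483654-62483903: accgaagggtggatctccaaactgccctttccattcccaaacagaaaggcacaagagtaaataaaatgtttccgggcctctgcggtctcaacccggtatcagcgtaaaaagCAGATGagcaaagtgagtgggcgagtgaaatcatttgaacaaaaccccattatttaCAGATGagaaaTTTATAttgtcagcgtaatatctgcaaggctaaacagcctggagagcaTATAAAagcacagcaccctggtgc
Ppy, chr11:102101320-102101569: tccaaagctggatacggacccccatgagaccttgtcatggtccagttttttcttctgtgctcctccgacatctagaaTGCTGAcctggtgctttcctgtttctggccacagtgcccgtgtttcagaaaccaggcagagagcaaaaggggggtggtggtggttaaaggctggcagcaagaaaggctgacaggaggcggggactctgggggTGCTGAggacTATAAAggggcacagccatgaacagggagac
Pyy, chr11:102107833-102108082: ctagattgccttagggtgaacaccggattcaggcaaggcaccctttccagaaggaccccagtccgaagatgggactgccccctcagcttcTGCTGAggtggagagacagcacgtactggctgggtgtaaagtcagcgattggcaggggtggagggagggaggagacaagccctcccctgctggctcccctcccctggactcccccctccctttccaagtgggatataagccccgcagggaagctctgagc
TATAAA lay 24 to 19 bases before the start of Gcg and 31 to 26 bases before that of Ppy, and these letters were not in the Pyy window. CAGATG was found in the Gcg window alone of the 3, at 139 to 134 and at 83 to 78 bases before the start. TGCTGA was found in the Ppy window, at 173 to 168 and at 41 to 36 bases, and in the Pyy window, at 160 to 155 bases. Over 32851 RefSeq promoter windows of this length, 12.4% held TATAAA, 16.1% TGCTGA and 14.4% CAGATG, so each is common, and a match is a description of the letters only. Ppy (chr11:102099930-102101319, GRCm38) and Pyy (chr11:102106676-102107832) lie next to each other on the minus strand, 5.36 kb apart with no annotated protein-coding gene between them. Gcg lies at chr2:62474530-62483650.

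Gcg encodes proglucagon, the precursor of glucagon. It was at 236 and 422 RPKM in the male and female beta libraries, 1620 and 2368 in the transdifferentiated libraries, and 14573 and 15846 in the delta libraries. The 3 sorts did not overlap, and both delta libraries stood far above the rest. Means were 329 ± 132 (SD, n = 2) in beta, 1994 ± 528 in transdifferentiated and 15209 ± 900 in delta cells. The transdifferentiated libraries thus held 13.1% of the delta level. Gcg fell by 2.96 on the log2(RPKM + 1) scale against delta (SE 0.29, limma adjusted p = 0.00208) and rose by 2.63 against beta (SE 0.29, adjusted p = 8.11e-04).

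Ppy encodes pancreatic polypeptide. Its level was 522 and 330 RPKM in the beta, 5852 and 5508 in the transdifferentiated, and 16735 and 15817 in the delta libraries. The sorts again did not overlap, and the male library was the higher in each. The transdifferentiated mean, 5680 ± 243 (SD, n = 2), was 34.9% of the delta mean, 16276 ± 649. Ppy fell by 1.52 on the log2 scale against delta (SE 0.21, limma adjusted p = 0.00647) and rose by 3.77 against beta (SE 0.21, adjusted p = 1.51e-04). Without the female transdifferentiated library the adjusted p of the first difference was 0.0526, and with no filter on low values it was 0.141.

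Pyy, which encodes peptide YY, had the highest level of the 10 genes in both the delta and the transdifferentiated sort. It was at 280 and 228 RPKM in the beta, 6024 and 6533 in the transdifferentiated, and 19764 and 21259 in the delta libraries. The transdifferentiated mean, 6279 ± 359 (SD, n = 2), was 30.6% of the delta mean, 20511 ± 1057, and the beta mean, 254 ± 36.5, was 1.24% of it. Pyy fell by 1.71 on the log2 scale against delta (SE 0.14, limma adjusted p = 0.00112; 0.0829 with no filter on low values) and rose by 4.63 against beta (SE 0.14, adjusted p = 2.28e-05).

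These 3 hormones were among the most abundant transcripts of the delta sort. Ranked by RPKM, the male and female delta libraries had Pyy at 3 and 2, Ppy at 4 and 5, and Gcg at 5 and 4, with Sst, the somatostatin gene, at 1. In the transdifferentiated libraries Pyy ranked 5 in both, Ppy ranked 6 in both, and Gcg ranked 14 and 11. In the beta libraries the highest rank of the 3 was 39, of Ppy in the male pool. Together they made up 13.8% and 13.9% of the summed RPKM in the delta libraries, 3.53% and 3.68% in the transdifferentiated libraries and 0.176% and 0.201% in the beta libraries. The beta sort has no lineage label for delta cells, and its Sst level of 71.1 and 86.8 RPKM was 0.146% of that of the delta sort, whereas its Gcg was 2.16% and its Ppy 2.62% of the delta level. The summed level of 8 alpha-cell markers, which include Gcg and 5 more genes described here, was 15380 to 16763 RPKM in delta, 1922 to 2686 in transdifferentiated and 530.0 to 692 in beta libraries. For 7 PP-cell markers the sums were 36568 to 37144, 11913 to 12074 and 570 to 811. In the delta libraries the alpha-cell sum is mostly Gcg and the PP-cell sum mostly Pyy and Ppy, none of the genes of either list was at 0 in both libraries of a sort, and whether these transcripts come from delta-lineage cells or from other cells in the gate was not tested.

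**Figure D1:**
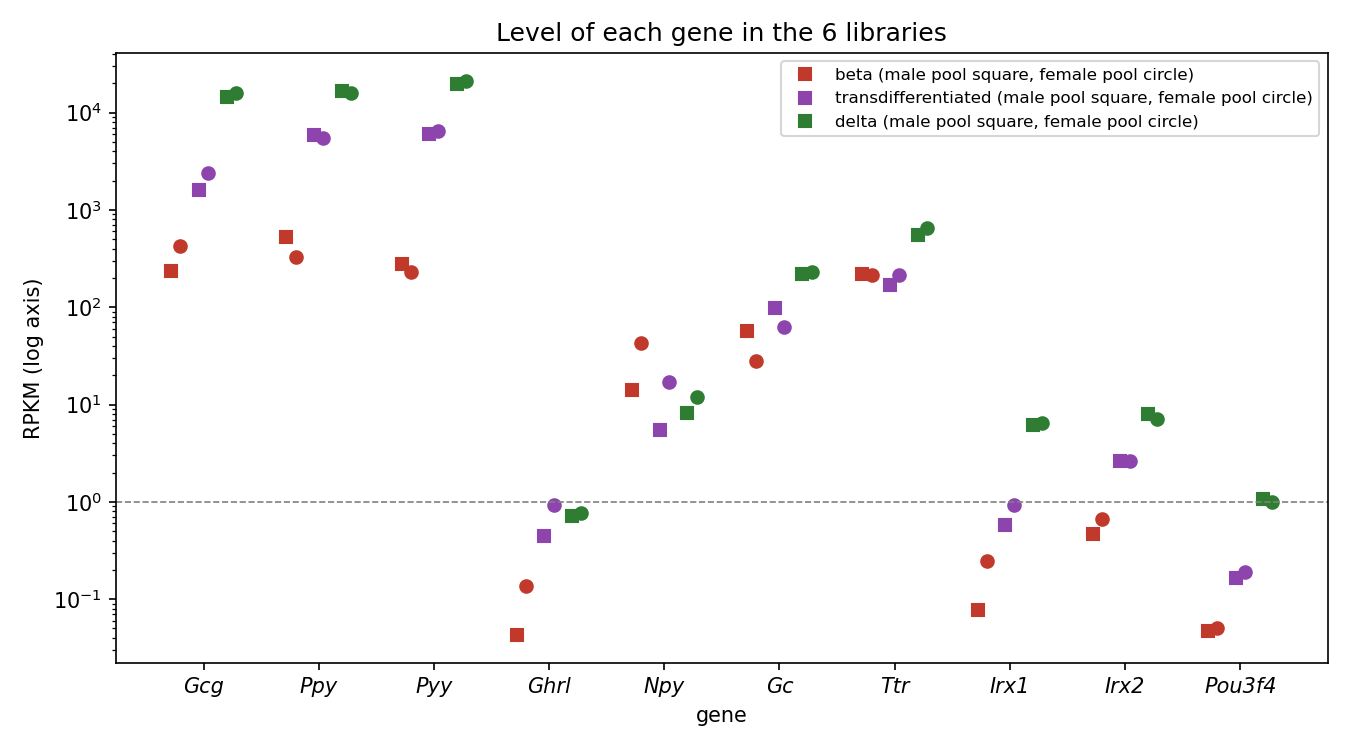
RPKM of the 10 genes in each of the 6 libraries, on a log axis; squares are the male pool, circles the female pool, colours the 3 sorts, and the dashed line 1 RPKM. Gcg, Ppy and Pyy run from 228 to 522 RPKM in beta to 14573 to 21259 RPKM in delta libraries with the transdifferentiated libraries between them, while Ghrl stays under 1 RPKM in all 6.

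Ghrl encodes ghrelin. It was near the limit of detection in every sort: 1 and 3 reads in the beta, 6 and 11 in the transdifferentiated, and 13 in each of the delta libraries, or 0.0430 and 0.136, 0.444 and 0.935, and 0.710 and 0.768 RPKM. No library reached 1 RPKM, so Ghrl was left out of the main test. Per read sequenced, the transdifferentiated libraries held 7.62 times as many Ghrl reads as the beta libraries (exact 95% interval 2.49 to 31.1) and 0.911 times as many as the delta libraries (0.464 to 1.74). These intervals cover counting error only, and the second leaves both a lower and a higher level possible. Ghrl lies at chr6:113716119-113719880. An unclassified annotated gene on the other strand, Gm44033 (chr6:113718584-113719278), lies within it, and without strand their reads could not be told apart, while the antisense gene Gm26982 overlaps its end by 3 bases only. Mboat4, the enzyme that acylates ghrelin, was at 0.312 RPKM or less in all 6 libraries.

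Npy, which encodes neuropeptide Y (chr6:49822710-49829507), did not follow the order of the other hormones. It was at 14.3 and 42.6 RPKM in the beta libraries, 5.50 and 16.9 in the transdifferentiated, and 8.12 and 11.8 in the delta libraries. The beta sort held both the highest value and, in the male pool, one below the female transdifferentiated library, and the transdifferentiated values spanned those of delta. The delta and transdifferentiated sorts differed by -0.01 on the log2 scale (SE 0.60, 95% interval -1.43 to 1.42, limma adjusted p = 0.996), an interval that leaves room for a large difference either way. The transdifferentiated sort was 1.26 lower than beta on the log2 scale (SE 0.60, adjusted p = 0.12), and beta was 1.25 higher than delta (SE 0.60, adjusted p = 0.113). With the pool as a block in the model, adjusted p was 0.00565 and 0.00466 for these differences. In both pools the beta library was the highest of the 3.

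The 3 transcription factors were far less abundant. Of these, 2, Irx1 and Pou3f4, passed the filter on low values through the delta libraries alone, so their tests against delta are a description only. Irx1 (chr13:71957921-71963723), an Iroquois factor, was at 0.0782 and 0.247 RPKM in the beta, 0.572 and 0.928 in the transdifferentiated, and 6.23 and 6.40 in the delta libraries. The sorts did not overlap. In reads these were 16 in the 2 beta libraries together, 41 in the transdifferentiated and 489 in the delta libraries. The read rate in the transdifferentiated sort was 0.117 times that of delta (exact 95% interval 0.0828 to 0.161) and 4.60 times that of beta (2.52 to 8.77). On the log2(RPKM + 1) scale, which understates changes at this level, Irx1 fell by 2.07 against delta (SE 0.16, limma adjusted p = 8.69e-04) and rose by 0.59 against beta (SE 0.16, adjusted p = 0.0190). The latter call was lost without the male beta library (adjusted p = 0.0821), without the female transdifferentiated library (0.0878) and with no filter on low values (0.0569).

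Irx2 (chr13:72628820-72634198), the neighbouring Iroquois gene, lies 665 kb from Irx1 with no annotated protein-coding gene between them. It was at 0.466 and 0.670 RPKM in the beta, 2.63 and 2.60 in the transdifferentiated, and 7.97 and 7.15 in the delta libraries. The sorts did not overlap, and the transdifferentiated libraries held 34.5% of the delta level, against 11.9% for Irx1. Irx2 fell by 1.24 on the log2 scale against delta (SE 0.13, limma adjusted p = 0.00230) and rose by 1.21 against beta (SE 0.13, adjusted p = 6.75e-04). The ratio of Irx2 to Irx1 RPKM was 4.59 and 2.80 in the transdifferentiated libraries and 1.28 and 1.12 in the delta libraries.

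Pou3f4 (chrX:110814280-110817207), a POU-domain factor also known as Brn4, was the least abundant of the 3 in every library. Its values were 0.0475 and 0.0501 RPKM in the beta, 0.163 and 0.188 in the transdifferentiated, and 1.07 and 1.002 in the delta libraries, from 6, 12 and 99 reads per sort. The sorts did not overlap, but the beta and transdifferentiated values rest on a handful of reads each. The read rate in the transdifferentiated sort was 0.169 times that of delta (exact 95% interval 0.0844 to 0.308) and 3.59 times that of beta (1.25 to 11.6). Pou3f4 fell by 0.79 on the log2(RPKM + 1) scale against delta (SE 0.14, limma adjusted p = 0.0132), and its difference from beta was 0.16 (SE 0.14, adjusted p = 0.342).

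The carriers were of middle abundance. Gc (chr5:89417522-89457898) encodes the vitamin D-binding protein. It was at 56.9 and 28.2 RPKM in the beta, 97.7 and 62.9 in the transdifferentiated, and 217 and 230 in the delta libraries. The sorts did not overlap, but in the beta and transdifferentiated sorts the male library was well above the female one. Gc fell by 1.50 on the log2 scale against delta (SE 0.33, limma adjusted p = 0.0321), a call that did not hold without any 1 of the 4 libraries compared (adjusted p = 0.0547 to 0.163), under a rescaling of the libraries (0.0514) or with no filter (0.116). With the pool as a block its adjusted p was 0.00759. Against beta it was 0.95 higher (SE 0.33, adjusted p = 0.0511), with an adjusted p of 0.0136 when the pool was a block.

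Ttr encodes transthyretin, the carrier of thyroxine and, bound to retinol-binding protein, of retinol. It was at 221 and 214 RPKM in the beta, 171 and 217 in the transdifferentiated, and 548 and 644 in the delta libraries. The beta and transdifferentiated values overlapped, and both lay well below delta. Ttr fell by 1.62 on the log2 scale against delta (SE 0.15, limma adjusted p = 0.00167). Its difference from beta was -0.18 (SE 0.15, 95% interval -0.53 to 0.18, adjusted p = 0.351). The transdifferentiated level was 32.5% and the beta level 36.5% of that of delta, so Ttr had no intermediate level in the transdifferentiated sort.

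Counted together, 8 of the 9 tested genes were lower in transdifferentiated than in delta cells and none was higher, where 7.2% of all 13022 tested genes were lower and 5.53% higher. The median of the 9 differences was -1.52, beside -0.03 over all tested genes. Against beta, 5 of the 9 were higher (Gcg, Ppy, Pyy, Irx1 and Irx2) and none was lower, where 42.5% of all tested genes were higher and 8.46% lower, so a higher level than in beta was common among all genes. Between beta and delta, 8 of the 9 were lower in beta, where 46.3% of all tested genes were lower and 11.7% higher. Npy was the exception in each of the comparisons with delta. Irx1 and Pou3f4 passed the filter only because the delta libraries were high, so these counts describe the genes and carry no further weight. The comparisons share libraries: a low value in the transdifferentiated sort enters both of its comparisons.

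**Figure D2:**
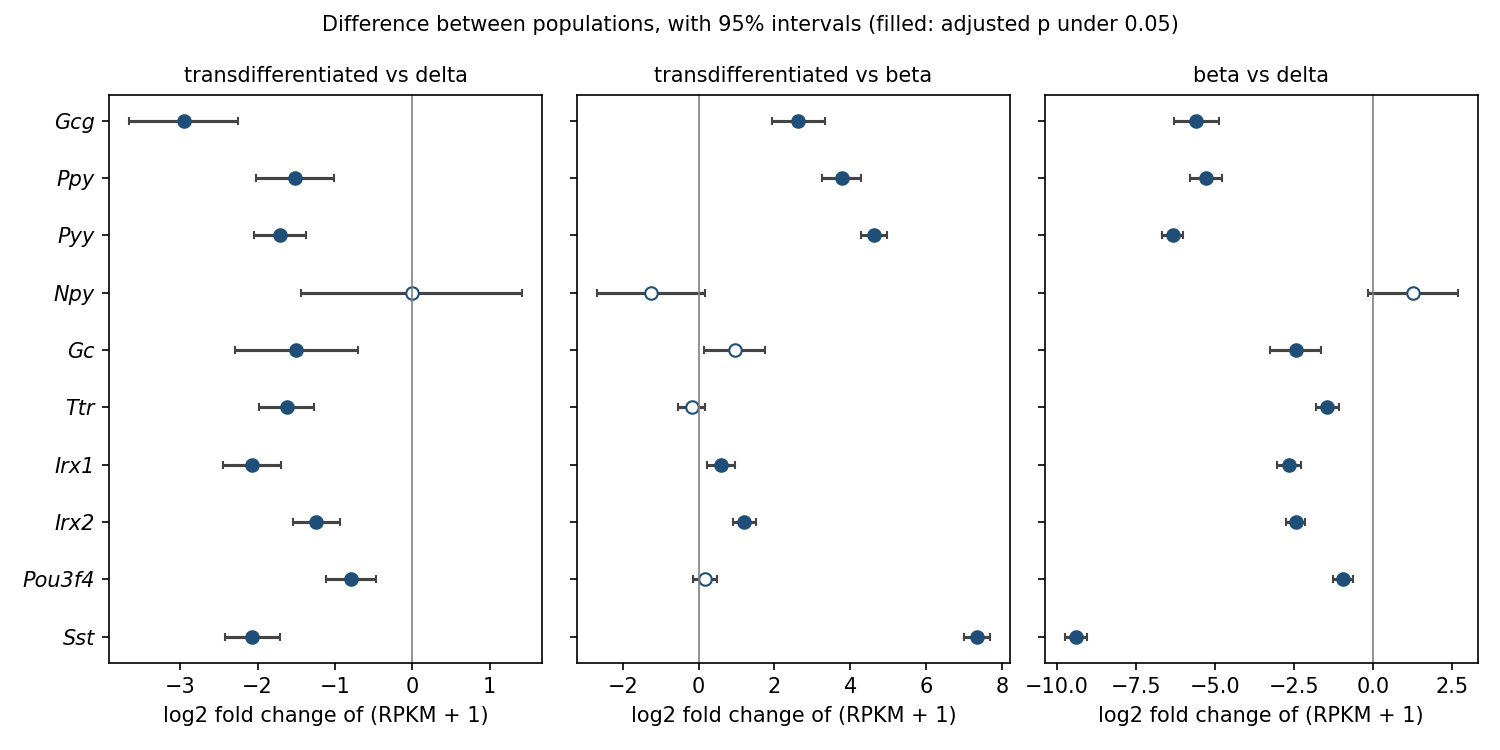
Log2(RPKM + 1) differences of the 9 tested genes and Sst in the 3 comparisons, with 95% intervals from limma; filled points passed the test, open points did not, and a vertical line marks no difference. Against delta, all but Npy lie below 0, from -0.79 for Pou3f4 to -2.96 for Gcg, while Npy has the widest interval in each panel.

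For the hormones Gcg, Ppy and Pyy the beta-to-delta difference was the largest of the 3 comparisons. The delta mean was 46.2 times the beta mean for Gcg, 38.2 times for Ppy, 80.7 times for Pyy and 685 times for Sst. On the log2 scale beta was lower by -5.59 for Gcg (SE 0.29, limma adjusted p = 2.67e-05), by -5.29 for Ppy (SE 0.21, adjusted p = 1.13e-05) and by -6.34 for Pyy (SE 0.14, adjusted p = 2.28e-06). Gc differed by -2.45 (SE 0.33, adjusted p = 0.00110) and Ttr by -1.44 (SE 0.15, adjusted p = 3.68e-04). Among the factors, the beta-to-delta read rate was 0.0254 for Irx1 (exact 95% interval 0.0144 to 0.0417), 0.0746 for Irx2 (0.0584 to 0.0942) and 0.0471 for Pou3f4 (0.0169 to 0.106).

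The share of the delta level held by the transdifferentiated sort differed from gene to gene. As a share of the delta level in the same pool, Ppy was at 35.0% in the male and 34.8% in the female pool, Pyy at 30.5% and 30.7%, and Irx2 at 32.9% and 36.4%. Gcg was lower, at 11.1% and 14.9%, as were Irx1, at 9.17% and 14.5%, and Pou3f4, at 15.3% and 18.8%. Sst, the hormone of the lineage label, was at 25.8% and 22.1%. In both pools Gcg, Irx1 and Pou3f4 therefore lay below Sst, and Ppy, Pyy and Irx2 above it. For Pou3f4 this rests on 12 reads in the transdifferentiated sort, and the exact interval of its read rate, 0.0844 to 0.308 of delta, takes in the share of Sst. Ttr, at 31.2% and 33.6% of delta, and Gc, at 45.0% and 27.3%, were also above Sst in both, with the pools far apart for Gc. A share of delta leaves out the beta level, which was not low for Ttr and Gc. Measured from the beta level, as a percentage of the beta-to-delta difference in the same pool, Ttr lay at -15.4% and 0.554%. Gc lay at 25.5% and 17.2%, and Sst at 25.7% and 22.0%. On this measure Ttr was below Sst in both pools. Gc was nearly level with Sst in the male pool and below it in the female pool. The other genes named here kept their side of Sst.

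**Figure D3:**
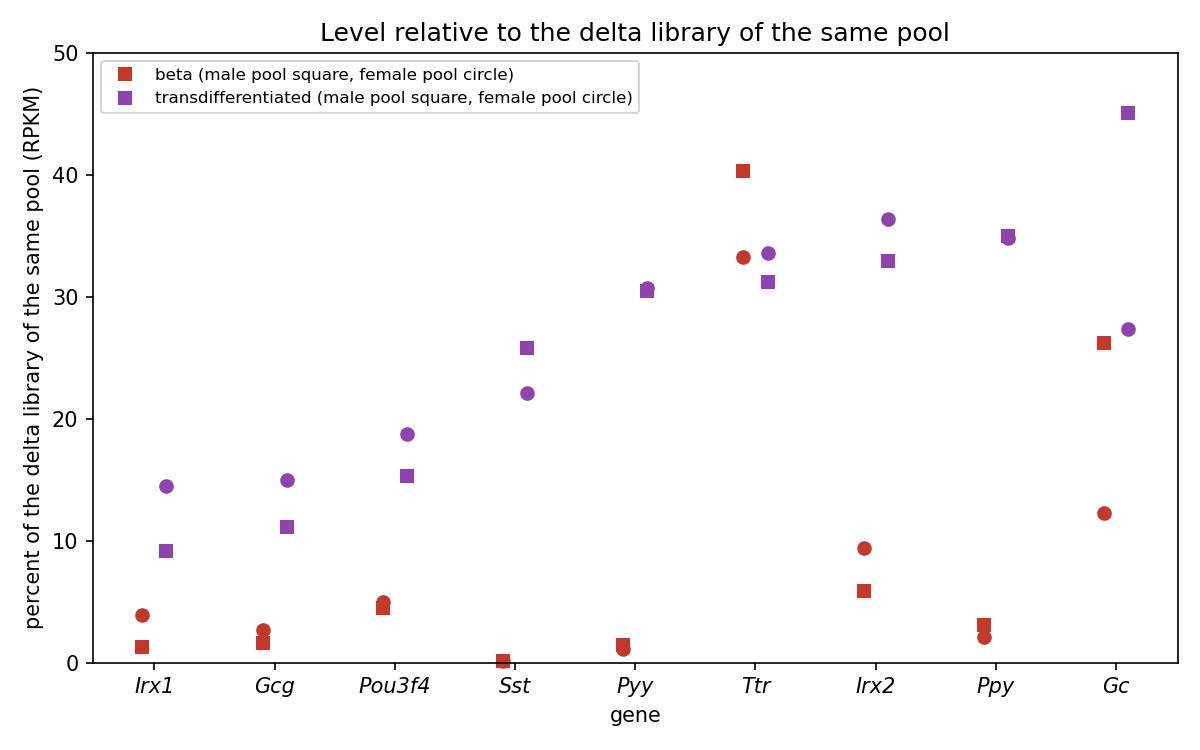
Level in the transdifferentiated and beta libraries as a percentage of the delta library of the same pool, for Sst and all the genes described except Npy and Ghrl; squares are the male pool and circles the female pool. In the transdifferentiated sort Gcg, Irx1 and Pou3f4 lie at 9.17% to 18.8%, below Sst at 22.1% to 25.8%, and Ppy, Pyy and Irx2 at 30.5% to 36.4%.

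The hormones were also set against Sst in the same library. Per 100 RPKM of Sst, Gcg was at 12.6 and 18.3 in the transdifferentiated and 29.3 and 27.1 in the delta libraries. Ppy was at 45.6 and 42.6 against 33.6 and 27.0, and Pyy at 46.9 and 50.5 against 39.7 and 36.4. The sorts did not overlap for any of the 3, with Gcg below and Ppy and Pyy above the delta ratio. Relative to Sst, Gcg was 0.89 lower in transdifferentiated than in delta cells on the log2 scale (SE 0.26, limma adjusted p = 0.00329), Ppy 0.55 higher (SE 0.29, adjusted p = 0.0784; 0.0374 with the pool as a block) and Pyy 0.36 higher (SE 0.26, adjusted p = 0.189). Since Sst itself differs between the sorts, 99.6% of all tested genes passed this test, its p-values treat the error of Sst as independent between genes and are too small, and nothing is read from the number called. Without the male transdifferentiated or the male delta library, the adjusted p for Gcg was 0.0978 and 0.0684. The ratio of Ppy to Gcg, which does not involve Sst, was 3.61 and 2.33 in the transdifferentiated libraries, 1.15 and 0.998 in the delta libraries, and 2.22 and 0.781 in the beta libraries, where the pools spanned the delta ratios. The ratio of Ppy to Pyy was 0.971 and 0.843 in transdifferentiated, 0.847 and 0.744 in delta and 1.87 and 1.45 in beta libraries.

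The male and female pools differed in some of these genes, with 1 library of each sex per sort. Npy was higher in the female library of every sort, by 2.99 times in beta, 3.07 in transdifferentiated and 1.46 in delta cells. Gcg was higher in females by 1.79, 1.46 and 1.09 times. Gc ran the other way in beta and transdifferentiated cells, where the female library held 0.496 and 0.644 times the male level, but not in delta cells, at 1.06 times. In a model with sort and pool as terms, none of the 9 genes passed (limma, 0.361% of all tested genes did), and 3 had an unadjusted p under the threshold. These were Npy, with a female-minus-male log2 difference of 1.16 (SE 0.20, unadjusted p = 8.0e-04, adjusted p = 0.116), Gcg with 0.50 (SE 0.15, adjusted p = 0.378) and Gc with -0.51 (SE 0.19, adjusted p = 0.522). Without either delta library all 3 passed, and without either transdifferentiated library Npy did. Over all 3 sorts, 3 of the 9 genes were higher in every female library (Gcg, Npy and Irx1), where 18.3% of all tested genes were, and 1 was higher in every male library (Ppy), where 13.4% were. The acinar RNA of the male beta and transdifferentiated libraries moves with this contrast, and so does every other difference between the pools. Their part in it was not tested.

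**Figure D4:**
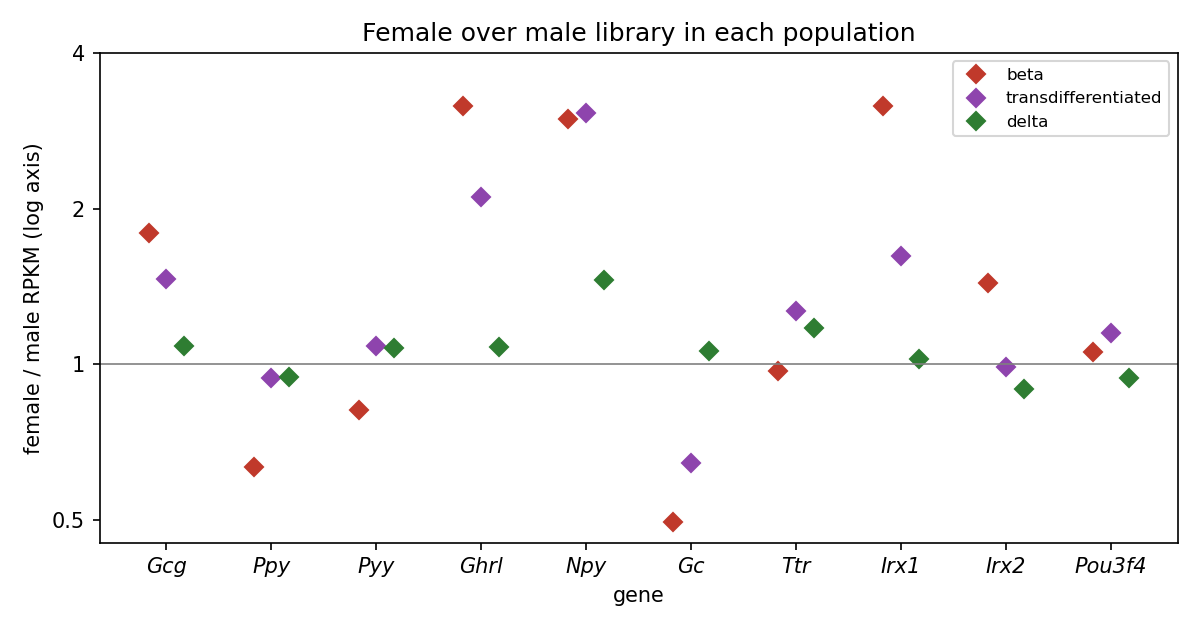
Female over male ratio of RPKM in each sort, on a log axis, for the 10 genes; each point is 1 library over 1 library and has no error. Npy lies above 1 in all 3 sorts, at 1.46 to 3.07, Gcg at 1.09 to 1.79, and Gc below 1 in beta and transdifferentiated cells.

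Other genes of alpha and PP cells were read from lists that hold none of the 10. Of 8 other alpha-cell genes, 4 were lower and 1 was higher in transdifferentiated than in delta cells, with a median difference of -0.57 on the log2 scale beside -0.03 over all genes, of which 7.2% were lower and 5.53% higher. Without any 1 of the 4 libraries compared, 3 were lower (Gpx3, Slc38a5 and Smarca1) and none was higher. Gpx3, a secreted glutathione peroxidase, fell by 1.78 (SE 0.20, limma adjusted p = 0.00291), Slc38a5, a glutamine transporter, by 1.43 (SE 0.12, adjusted p = 0.00123) and Smarca1, a chromatin remodeller, by 1.10 (SE 0.12, adjusted p = 0.00315). Sphkap was the gene that was higher, by 0.997 (SE 0.21, adjusted p = 0.0285), a call lost without any 1 of the 4 libraries compared. Slc7a2 also stood above delta, at 27.3 and 32.1 RPKM in transdifferentiated and 18.7 and 18.5 in delta libraries. Its difference of 0.64 did not pass (SE 0.24, limma adjusted p = 0.143). Against beta 5 of the 8 were higher (Gpx3, Smarca1, Wnk3, Dpp4 and Slc38a5), where 42.5% of all tested genes were. The median was 0.94 beside 0.32 over all genes, and without the female beta library 7 were higher. Between beta and delta 5 were lower and 1 was higher in beta, where 46.3% of all tested genes were lower and 11.7% higher.

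Of 6 other PP-cell genes 5 were tested. In transdifferentiated against delta cells 4 of them were lower, where 7.2% of all tested genes were lower and 5.53% higher. Sertm1 and Thsd7a, which are among the 4, passed the filter through the delta libraries alone, so this count and their tests against delta are a description only. Etv1, a transcription factor of the ETS family, was at 1.83 and 1.64 RPKM in beta, 15.1 and 12.0 in transdifferentiated and 33.5 and 31.1 in delta libraries. It fell by 1.20 against delta (SE 0.14, limma adjusted p = 0.00315) and rose by 2.40 against beta (SE 0.14, adjusted p = 1.53e-04). Sertm1 fell by 1.03 (SE 0.16, adjusted p = 0.00977) and Thsd7a by 0.93 (SE 0.13, adjusted p = 0.00700) against delta. Meis2, a homeobox factor, fell by 0.65 (SE 0.14, adjusted p = 0.0304), which did not hold without any 1 of the 4 libraries compared. Against beta 4 of the 5 were higher, where 42.5% of all tested genes were, and in beta all 5 were lower than in delta, where 46.3% of all tested genes were. Without 1 of the delta libraries only 3 of the genes could be tested, of which 1 was lower against delta.

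Of 9 receptor genes for these and related hormones 4 were tested. In transdifferentiated against delta cells 3 of them were higher and 1 lower, where 5.53% of all tested genes were higher and 7.2% lower. Gcgr, the glucagon receptor, was at 12.3 and 11.8 RPKM in beta, 10.6 and 15.1 in transdifferentiated and 4.41 and 4.06 in delta libraries, a rise of 1.38 over delta (SE 0.17, limma adjusted p = 0.00374). Glp1r, the receptor of the proglucagon product GLP-1, was at 102 and 207, 102 and 136, and 34.2 and 44.0 RPKM, a rise of 1.58 (SE 0.33, adjusted p = 0.0261; 0.0715 to 0.139 without 1 of the 4 libraries compared). Gipr, the receptor of the related incretin GIP, rose by 1.62 over delta (SE 0.20, adjusted p = 0.00397) and by 0.97 over beta (SE 0.20, adjusted p = 0.00705). Ghsr, the ghrelin receptor and a delta-cell gene, went the other way: it was at 0.0209 and 0.0662 RPKM in beta, 17.8 and 14.7 in transdifferentiated and 49.5 and 46.7 in delta libraries, and fell by 1.51 against delta (SE 0.13, adjusted p = 0.00116). The 4 receptors of the pancreatic polypeptide family, Npy1r, Npy2r, Npy4r and Npy5r, were at 0.0196 RPKM or less in every library, and Glp2r was listed at 0 in all 6.

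Of the genes that process the peptides, Pcsk1 differed most. This prohormone convertase releases GLP-1 from proglucagon, whereas Pcsk2 releases glucagon. Pcsk1 was at 140 and 239 RPKM in beta, 153 and 188 in transdifferentiated and 22.8 and 20.9 in delta libraries, and rose by 2.90 over delta (SE 0.25, limma adjusted p = 0.00128). Pcsk2 was at 420 and 546, 420 and 485, and 546 and 613 RPKM, and differed by -0.36 from delta (SE 0.16, adjusted p = 0.215). Pam, the enzyme that amidates peptides, was 0.56 lower than in delta (SE 0.13, adjusted p = 0.0333), a call lost without the female transdifferentiated or either delta library. The 7 tested genes in this group share Pcsk2 and Dpp4 with the alpha-cell list. Against delta 1 was higher and 1 lower, where 5.53% of all tested genes were higher and 7.2% lower. Against beta 1, Dpp4, was higher, where 42.5% of all tested genes were. Under a rescaling of the libraries 2 were also lower against beta, where 2604 of all 13022 tested genes were.

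Other members of the transcription factor families were hardly detected. Irx3, Irx4, Irx5, Irx6, Pou3f2 and Pou3f3 were at 0.0533 RPKM or less in every library. Pou3f1 was the 1 of 7 paralogs that could be tested, at 0.0482 and 0 RPKM in beta, 0.332 and 0.358 in transdifferentiated and 1.03 and 1.33 in delta libraries. It passed the filter through the delta libraries alone, so its test against delta is a description only. Its difference from delta was -0.69 (SE 0.15, limma adjusted p = 0.0266), a call lost without any 1 of the beta or transdifferentiated libraries, and without a delta library it was not tested.

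Of 6 partners of the carriers, Rbp4 and Vdr were tested. Rbp4, the retinol-binding protein that travels with transthyretin and is also a delta-cell marker, was at 8.19 and 9.31 RPKM in beta, 569 and 577 in transdifferentiated and 1768 and 1955 in delta libraries. It fell by 1.70 against delta (SE 0.11, limma adjusted p = 6.36e-04) and rose by 5.88 against beta (SE 0.11, adjusted p = 4.75e-06), whereas the difference of Ttr between the transdifferentiated and beta sorts did not pass the test. Vdr, the vitamin D receptor, ran opposite to Gc, at 27.4 and 45.6, 22.1 and 28.8, and 8.32 and 10.5 RPKM. It was 1.34 higher in transdifferentiated than in delta cells (SE 0.25, adjusted p = 0.0182), with an adjusted p of 0.0508 to 0.104 without any 1 of the 4 libraries compared.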

How the data were processed

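RNA libraries of 6 sorted samples were made with a TruSeq kit, per the labels' protocols. The authors deposited a table of RPKM; per the submitters' processing notes STAR 2.5, featureCounts and edgeR 3.14.0 were used with GRCm38.p4. Their settings, the strand of counting and any correction for composition are not given in the sources used here. The whole-read steps of the deposited RPKM, with GENCODE M21 exon lengths, gave the depth (83.4% to 86.4% of low values fell within 0.01 of a whole read). For Irx1 the annotated length gave no whole reads and a fitted length was used for its reads.

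Of 46959 symbols 27 turned into dates were left out. RPKM was tested as log2(RPKM + 1) with limma 3.58.1 (trend, R 4.3.3) over the 13022 genes that reached 1 RPKM in 2 libraries of the 6, in 1 model of 3 sorts, 2-sided, with Benjamini-Hochberg adjustment over all tested genes and a threshold of 0.05. "Rose", "fell", "higher" and "lower" in counts mean past that threshold. On simulated data, 90% of genes changed by 1 on the log2 scale and 100% of those changed by 2 were recovered. These figures are for transdifferentiated against delta, with 21 false calls among 13022 genes. The 13022 are all the genes and not the calls, and the share of false calls among the calls is not given. How far the figures carry over to the measured libraries was not tested. Ratios of reads carry exact 95% binomial intervals. The deviations of same-pool libraries from their sort means correlated (0.24 to 0.47), and the design text gives 1 source of islets for the sorts, so pool was taken to pair the libraries and was a block in an alternative fit.

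All 10 genes are named, with the 3 nearest tested genes of each, and from each other list at most 4 that passed, by size of change. Those that a sentence on a hormone or carrier needs are named too. Others named in counts, and Slc7a2, were chosen after their values were seen. The genes and lists were chosen with earlier results of these data known. Promoters matched for 8 of the 10 genes. Of the alpha-cell lists, 2 genes are not reported here.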

Additional observations from a re-analysis of the deposited data

How the results depend on the processing

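With the replicate block, 8 of the 9 tested genes were called against delta, 7 against beta (6 higher and 1 lower, with Npy and Gc added) and 9 between beta and delta (Npy added), and 1925, 7022 and 7890 of all genes. No filter on low values left 5 called against delta, and leaving out 1 library left 5 to 8, 4 to 6 against beta and 6 to 9 between beta and delta. Without a delta library Irx1 and Pou3f4 no longer passed the filter and were not tested. Leaving out 1 library gave 502 to 2075 calls among all genes against delta (1657 with all), 4120 to 7047 against beta (6642) and 4893 to 7769 between beta and delta (7546). Relative to Sst 5 genes were called, and 2 to 8 without 1 library; for the pool none was, and 0 to 3 without 1 library. The numbers called among all genes are not given with no filter, nor for the pool or relative to Sst without 1 library. Those counts of the 9 genes therefore have no background beside them. The alternatives to these tests were chosen after seeing the data. Median-of-ratios scaling moved the median of all genes from 0.32 to 0.09 against beta, with 83.4% of calls higher becoming 61.3%. Between beta and delta that median moved from -0.36 to -0.11, with 20.2% higher becoming 40.3%. The numbers of the 9 genes called were then 7 against delta, 5 against beta and 8 between beta and delta. Of all 13022 genes, 796 were then higher and 855 lower against delta. Against beta 4118 were higher and 2604 lower, and between beta and delta 2951 and 4380. The difference of Npy from delta, near 0, changed sign with that scaling (0.022) and ranged from -0.74 to 0.72 without 1 library. Npy was called lower than beta without beta replicate 1 (adjusted p = 0.0452, limma) or transdifferentiated replicate 2 (0.0442), and higher in beta than delta without beta replicate 1 (0.0396). Gc was called higher than beta without beta replicate 1 (0.0114) or transdifferentiated replicate 2 (0.0462). Taken as a ratio to Sst, which by construction carries the difference of Sst, signs turned against delta for Ppy (0.55), Pyy (0.36), Npy (2.06), Irx2 (0.82), Pou3f4 (1.27; 0.02 with a pseudocount of 0.1), Gc (0.57) and Ttr (0.44). Against beta they turned for Gcg (-4.71), Ppy (-3.57), Pyy (-2.71), Irx1 (-6.75), Irx2 (-6.13), Pou3f4 (-7.17) and Gc (-6.39), and between beta and delta for Gcg (3.82), Ppy (4.12), Pyy (3.07), Irx1 (6.75), Irx2 (6.95), Pou3f4 (8.45), Gc (6.96) and Ttr (7.96). Irx1 relative to Sst ranged from -0.15 to 0.14 against delta without 1 library, on the scale with 1 RPKM added. With a pseudocount of 0.1 it was -0.88 (SE 0.38, limma adjusted p = 0.0438), so its value near 0 depends on the added 1 RPKM. For the pool, the difference ranged from -0.094 to 0.11 for Pyy and from -0.074 to 0.089 for Irx2 without 1 library, and Pou3f4 turned to 0.024 with a pseudocount of 0.1. Apart from Pou3f4 against delta, the signs that turned in the ratio to Sst follow from the difference of Sst itself. Pou3f4 per 100 RPKM of Sst was at 0.00127 and 0.00145 in transdifferentiated and 0.00214 and 0.00171 in delta libraries. Without the added 1 RPKM its ratio to Sst was therefore lower in transdifferentiated than in delta libraries. The cause of the other changes was not tested. The calls of Npy and Gc depend on whether the pool is a block and on single libraries, with 2 libraries a sort, and the beta levels of Ghrl, Irx1 and Pou3f4 rest on 16 reads or fewer.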

Other observations

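The genes whose pattern over the 6 libraries lay closest to each of the tested hormones and markers were taken by the Euclidean distance between log2(RPKM + 1) values, each gene centred on its own mean, among 11562 genes. This is a description over 6 libraries that share their sort and pool, and says nothing of shared function. Closest to Ppy was Neurog3, the transcription factor that marks endocrine progenitors, at a distance of 0.448: it was at 0.301 and 0.190 RPKM in beta, 17.0 and 13.0 in transdifferentiated and 43.4 and 44.2 in delta libraries. Ncam2, a neural cell adhesion gene, and Ehf, an ETS-family factor, followed at 0.570 and 0.596. Closest to Pyy were Cd24a, Gap43 and Mest, at 0.659, 0.772 and 0.799. Gcg had no gene as close: its nearest was Gpx3, at 1.31, followed by Eef1a2 at 1.41 and Ly6h at 1.51.

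Irx1 lay nearest to Edn3, which encodes endothelin 3, at 0.287, then to Avpr1b, a vasopressin receptor, at 0.636 and Slc38a5 at 0.719. Edn3 was at 0.0902 and 0.119 RPKM in beta, 0.834 and 1.03 in transdifferentiated and 6.52 and 6.09 in delta libraries, close to Irx1 in level as well. Avpr1b was at 0.0231 and 0.0365, 0.595 and 0.889, and 3.41 and 4.44 RPKM. Nearest to Irx2 were Serpinh1, Ncs1 and Syne3, at 0.187 to 0.227, and to Pou3f4 Ndn, Fam46d and Bag3, at 0.0891 to 0.135. At the low level of Pou3f4 the added 1 RPKM shrinks its differences, so that abundant genes with small changes, such as Ndn, come out as near. It likewise shrinks the differences of neighbours under 1 RPKM in beta, such as Neurog3 and Ncam2 for Ppy and Gap43 for Pyy. Ncam2 was at 0.0376 and 0.0635 RPKM in beta and 42.1 and 36.5 in delta libraries. A small distance to such genes does not mean a like factor of RPKM. Gc lay nearest to Pcp4, Clu and Rhoc, at 0.389 to 0.533, and Ttr to Igsf21, Cst3 and Gfra3, at 0.508 to 0.568. Npy lay nearest to Scd1, a fatty acid desaturase, at 0.878, Mir1945 at 0.911 and Mvd, an enzyme of the mevalonate pathway, at 0.949. Scd1 and Mvd shared its female-over-male order in all 3 sorts, with Scd1 at 1.59 and 5.34, 0.693 and 2.31, and 0.731 and 2.85 RPKM.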
